A study of Rattus norvegicus with 5 samples.

Results

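The genes described here are 57 rat genes of the extracellular matrix, a list that spans laminin chains, collagens, nidogens, proteoglycans, adhesive and matricellular glycoproteins, elastic fibre proteins and lysyl oxidases. They were found on the arrays by matching each probe's RefSeq accession to a gene symbol. A probe could be paired with 39 of the 57, among 15154 genes paired in the whole series. The other 18 were not analysed here: Lama2, Lama3, Lama4, Lamb1, Col4a2, Col4a3, Col4a5, Nid1, Hspg2, Col15a1, Dag1, Col17a1, Col5a2, Col6a1, Col12a1, Col16a1, Fbln2 and Lox.

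RNA came from FRT cells, a line of epithelial thyroid cells from the Fischer rat that polarizes in culture but is a single line and no model of the other cells of the gland. The 3D group was 4 cultures in which cells suspended in Matrigel had formed follicles. The 2D group was 4 cultures grown as confluent monolayers, whose RNA was hybridized as a single pool. RNA was isolated on day 5. On 4 Agilent 2-colour arrays a 3D culture labelled with Cy5 was set against the 2D pool labelled with Cy3, and on 1 further array with swapped dyes a pool of the 4 3D cultures (Cy3) was set against the 2D pool (Cy5). The swapped array therefore adds no further culture, and because the 2D cultures were pooled their own spread was not measured. Matrigel is an extract of a mouse tumour that is itself rich in laminin, collagen IV and nidogen, so the 3D cells lay within a supplied basement membrane, whereas the arrays read only the cells' own RNA. In bulk RNA, fewer cells of a kind that expresses a gene and less RNA of that gene per cell cannot be told apart.

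Epithelial cells rest on a basement membrane, a thin sheet in which laminin trimers, each of an alpha, a beta and a gamma chain, bind integrins and dystroglycan on the cell surface. A second network of collagen IV lies beside it, nidogens bridge the networks, and heparan sulfate proteoglycans such as perlecan, agrin and collagen XVIII bind both. In the thyroid such a sheet surrounds every follicle. The interstitial matrix beyond it, of fibrillar collagens, fibronectin, elastic fibres and small proteoglycans, is made largely by fibroblasts, although epithelial cells in culture also secrete fibronectin.

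Of the 39 genes, Nid2, Sdc4 and Agrn were higher in 3D follicles and Fn1, Col18a1, Loxl2 and Lama5 were lower (limma, Benjamini-Hochberg FDR below 0.01 over all 15154 genes), and the other 32 did not pass. The 7 that passed are 17.9% of the 39, against a background of 25.9% of all genes that passed, 14.4% of them higher and 11.5% lower. At an unadjusted p under 0.05, 5 of the matrix genes were higher and 9 lower, 35.9% of the 39, against 40.3% of all genes (22.3% higher and 18.1% lower). Of the 39, 18 were not well above background on any array in either channel, with fitted log2 ratios between -0.10 and 0.08 and 0 calls, and 4 were above it on some arrays only, also with 0 calls. The remaining 17 were well above background in both channels of all 5 arrays, and they hold all 7 calls, 41.2% of them, beside 48.9% of the 7586 genes of the whole series with such signals (26.7% higher and 22.2% lower). The share of calls among matrix genes was therefore not above that of the series. All 7 calls were lost without loess, the intensity-dependent dye correction that the study also used: when each array was only centred on its median, 0 of the 39 genes and 7 of all 15154 genes passed. The sign was kept there by Nid2 (1.62), Sdc4 (1.27), Agrn (1.01), Fn1 (-1.52), Loxl2 (-0.29) and Col18a1 (-0.17), but not by Lama5 (0.20).

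**Figure D1:**
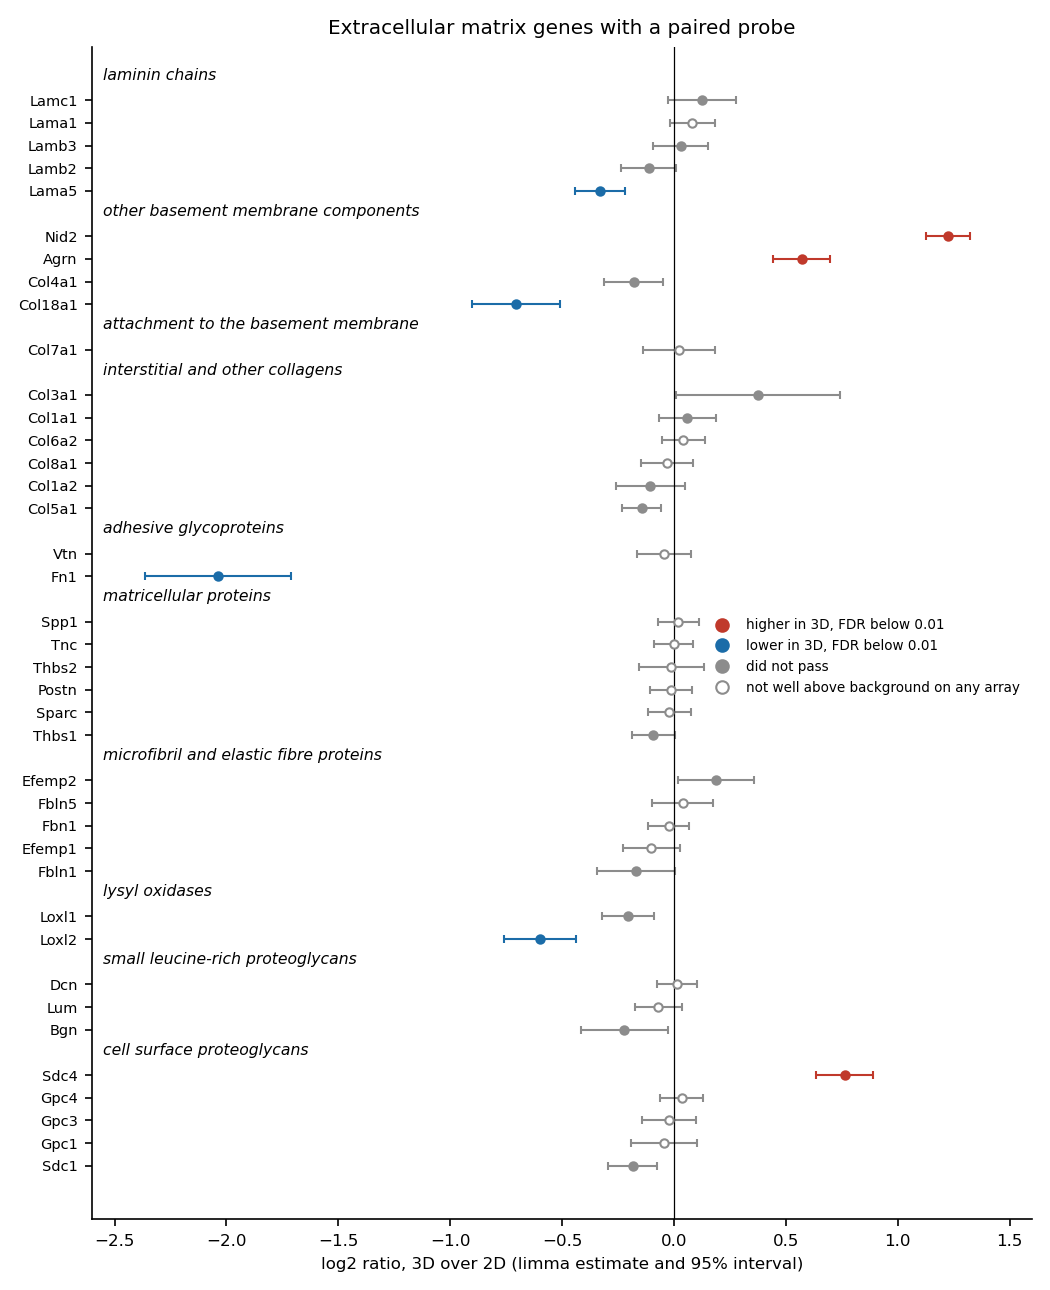
Log2 ratio of 3D over 2D for each of the 39 genes with a paired probe, grouped by role, as the limma estimate with its 95% interval. Red points were higher and blue points lower in 3D at an FDR below 0.01, grey points did not pass, and open points were not well above background on any array. Fn1 at -2.04 and Nid2 at 1.23 lie farthest from 0, and the open points lie between -0.10 and 0.08.

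Promoter sequence was given by RefSeq (build GRCr8) for 27 of the 39 genes, 4 of them among the 7 that passed: Sdc4 and Agrn, higher in 3D, and Lama5 and Col18a1, lower. They are shown because they were the ones available among the genes that passed. Fn1, Nid2 and Loxl2, which also passed, had no promoter sequence. Each line holds the 250 bases before the annotated start, 5′ to 3′ on the gene's strand, with every GC box (GGGCGG, on either strand, copies may overlap) in capitals.
Sdc4: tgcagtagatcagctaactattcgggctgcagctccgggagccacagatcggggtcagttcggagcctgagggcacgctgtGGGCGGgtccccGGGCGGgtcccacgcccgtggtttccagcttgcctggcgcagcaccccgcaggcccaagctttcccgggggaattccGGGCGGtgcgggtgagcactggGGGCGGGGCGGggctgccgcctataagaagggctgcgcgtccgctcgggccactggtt
Agrn: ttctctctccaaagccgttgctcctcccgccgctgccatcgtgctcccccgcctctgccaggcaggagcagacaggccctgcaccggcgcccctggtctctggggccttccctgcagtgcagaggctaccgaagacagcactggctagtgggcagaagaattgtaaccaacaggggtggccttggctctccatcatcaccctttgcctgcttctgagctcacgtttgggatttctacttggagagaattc
Lama5: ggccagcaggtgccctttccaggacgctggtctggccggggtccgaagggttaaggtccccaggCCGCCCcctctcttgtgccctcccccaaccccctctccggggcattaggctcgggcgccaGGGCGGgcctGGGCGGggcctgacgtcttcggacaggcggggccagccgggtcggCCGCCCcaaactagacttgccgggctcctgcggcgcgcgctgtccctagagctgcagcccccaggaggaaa
Col18a1: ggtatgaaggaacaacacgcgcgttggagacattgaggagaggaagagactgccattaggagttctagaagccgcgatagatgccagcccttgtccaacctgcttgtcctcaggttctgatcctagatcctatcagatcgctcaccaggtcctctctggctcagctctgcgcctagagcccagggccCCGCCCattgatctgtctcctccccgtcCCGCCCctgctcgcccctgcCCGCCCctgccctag
They lie at chr3:173592924-173593173 on the minus strand (Sdc4), chr5:172052826-172053075 on the minus strand (Agrn), chr3:187695975-187696224 on the minus strand (Lama5) and chr20:11473395-11473644 on the plus strand (Col18a1). The windows of Sdc4 and Lama5 were 70% and 72.8% G or C and held 5 and 4 GC boxes, those of Agrn and Col18a1 were both 60.4% G or C and held 0 and 3. Of 33469 promoter windows of this length in the table, 30.5% held a GC box. Searched on both strands, the AP-1 motif (TGANTCA, in 6.34% of all windows) and the TEAD motif (GGAATG, in 12.1%) were in none of the 4. The number of GC boxes did not separate the higher from the lower genes. Windows of genes that did not pass held GC boxes as well, for example 5 in Lamc1, 4 in Gpc4, 1 in Col4a1 and 0 in Lamb3.

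Among the laminin chains, 5 of 9 had a probe, and 1 of the 5 passed. Lama5, the alpha chain of the laminins that prevail in most adult epithelial basement membranes, was modestly lower in 3D. Its log2 ratios of 3D over 2D were -0.28, -0.38, -0.43 and -0.41 for replicates 1 to 4 and -0.16 on the swapped array. All 5 arrays were below 0, and the fit gave -0.33 ± 0.05 (SE; limma adjusted p = 0.000534), with a mean of -0.37 ± 0.07 (SD, n = 4) over the replicate arrays. The swapped array gave the smallest of the 5. Lama5 was also the least stable of the 7 calls: it no longer passed without the normexp offset (adjusted p = 0.0146) or on the scanner's processed signals (adjusted p = 0.0121), and its sign turned, to 0.20 (adjusted p = 0.547), with median centring alone.

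The beta and gamma chains differed little, and on them the dye swap did not follow the replicates. Lamb2, the beta chain that pairs with alpha chains in mature basement membranes, had log2 ratios of -0.15, -0.21, -0.12 and -0.21 in replicates 1 to 4 but 0.12 on the swapped array. Its fit of -0.11 (95% interval -0.24 to 0.01) did not pass. Lamc1, the gamma chain shared by most laminins, had 0.21, 0.24, 0.21 and 0.17 in the replicates and -0.21 on the swapped array, for a fit of 0.12 (95% interval -0.03 to 0.28). On these chains the 4 replicates were close together and the array with the dyes exchanged lay on the other side of 0. The swapped array read a pool of these same 4 cultures. With 1 such array, a dye effect and a difference of that array or its pool cannot be told apart. Without the swapped array Lamc1 passed as higher (0.21, limma adjusted p = 0.00127) and Lamb2 as lower (-0.17, adjusted p = 0.00505). Lamc1 was the only matrix gene whose probes had opposite signs: its second probe, above background on all arrays, fitted to -0.08, with values of 0.03, -0.03, -0.19 and -0.09 in the replicates and -0.11 on the swapped array.

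Lamb3, the beta chain of the laminin found in hemidesmosomes, had log2 ratios of -0.06, 0.02, -0.01 and -0.07 in replicates 1 to 4 and 0.27 on the swapped array, and its fit of 0.03 had a 95% interval of -0.10 to 0.15. Lama1, the alpha chain of the laminin that is abundant in Matrigel, was not well above background on any array in either channel. Its log2 ratios of 0.09, 0.11, 0.20, 0.03 and, on the swapped array, -0.02 are those of a dim probe.

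**Figure D2:**
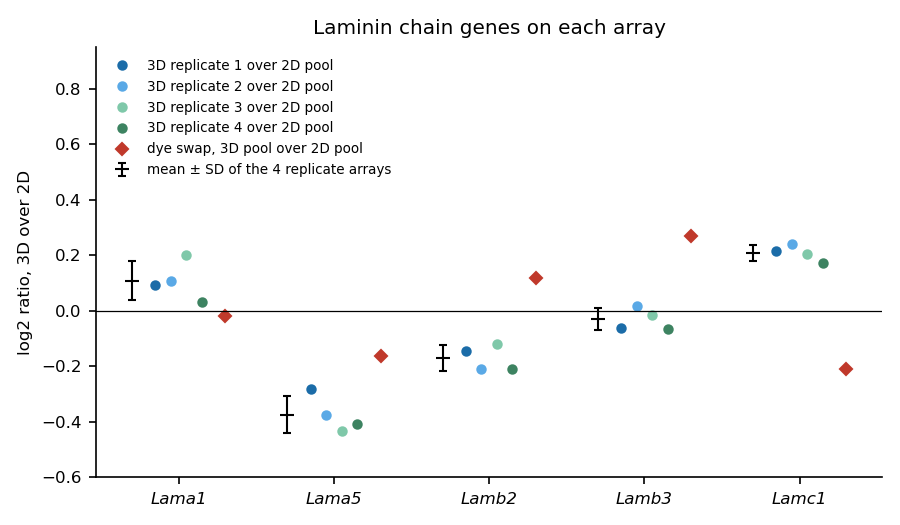
Log2 ratio of 3D over 2D for the 5 laminin chain genes with a probe on each array. Circles are the 4 replicate arrays, red diamonds the dye swap of the pools, and black bars the mean ± SD of the replicates. Lama5 lies below 0 on all 5 arrays, and for Lamb2, Lamb3 and Lamc1 the diamond stands apart from the circles.

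Of the other structural components of the basement membrane, 4 of 10 had a probe. They moved in opposite directions. Nid2, nidogen 2, a linker of laminin and collagen IV, was the most increased of the 39 genes. On the log2 scale its normalized signal was 8.64, 8.70, 8.65, 8.84 and 8.54 in the 3D channel of replicates 1 to 4 and the swapped array, against 7.47, 7.53, 7.40, 7.49 and 7.34 in the 2D channel. The channels did not overlap, although the 2D channel read the same pool on every array. Its log2 ratios of 1.17, 1.17, 1.25, 1.35 and 1.19 gave a fit of 1.23 ± 0.04 (SE; limma adjusted p = 9.46e-08), 2.34-fold higher in 3D, and the mean of the 4 replicates was 1.23 ± 0.09 (SD). A second, dimmer Nid2 probe was well above background in the 3D channel of all 5 arrays and in the 2D channel of 0, so its ratio has only a lower bound. Set against the lowest signal above background on each array, it was at least 1.28-fold higher in 3D as a mean over the arrays. Its measured log2 ratios were 0.43, 0.23, 0.29 and 0.34 in the replicates and 0.61 on the swapped array.

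Agrn, agrin, a large heparan sulfate proteoglycan that binds laminin and dystroglycan, was higher in 3D on every array. Its log2 ratios were 0.82, 0.55, 0.53 and 0.51 in replicates 1 to 4 and 0.45 on the swapped array. Replicate 1 stood above the rest. The fit was 0.57 ± 0.06 (SE; limma adjusted p = 3.63e-05), 1.48-fold higher, with a replicate mean of 0.60 ± 0.15 (SD, n = 4). The second Agrn probe, also above background throughout, fitted to a smaller 0.19 (0.36, -0.03, 0.12 and 0.09 in the replicates and 0.43 on the swapped array) and by itself did not pass (adjusted p = 0.0585 over probes).

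Col18a1, the basement membrane collagen that carries heparan sulfate and releases endostatin, was lower in 3D. The log2 ratios were -0.25 in replicate 1, then -0.88, -0.72 and -0.76 in replicates 2 to 4, and -0.92 on the swapped array. All were below 0, and replicate 1 was the least reduced. The fit of -0.71 ± 0.09 (SE; limma adjusted p = 0.00016) is 1.63-fold lower, and the replicate mean was -0.65 ± 0.28 (SD, n = 4). Col4a1, a chain of the collagen IV network, had 0.06, -0.24, -0.24 and -0.14 in the replicates and -0.35 on the swapped array. It did not pass (fit -0.18, 95% interval -0.31 to -0.05, limma adjusted p = 0.0392), but passed as lower when replicate 1, the only array above 0, was left out (-0.24, adjusted p = 0.00718). Its second probe fitted to -0.11. Col4a2, its partner in the same trimer, had no paired probe. Of the 3 genes that attach cells to the basement membrane only Col7a1, the collagen of anchoring fibrils, had a probe, and it was not well above background on any array.

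**Figure D3:**
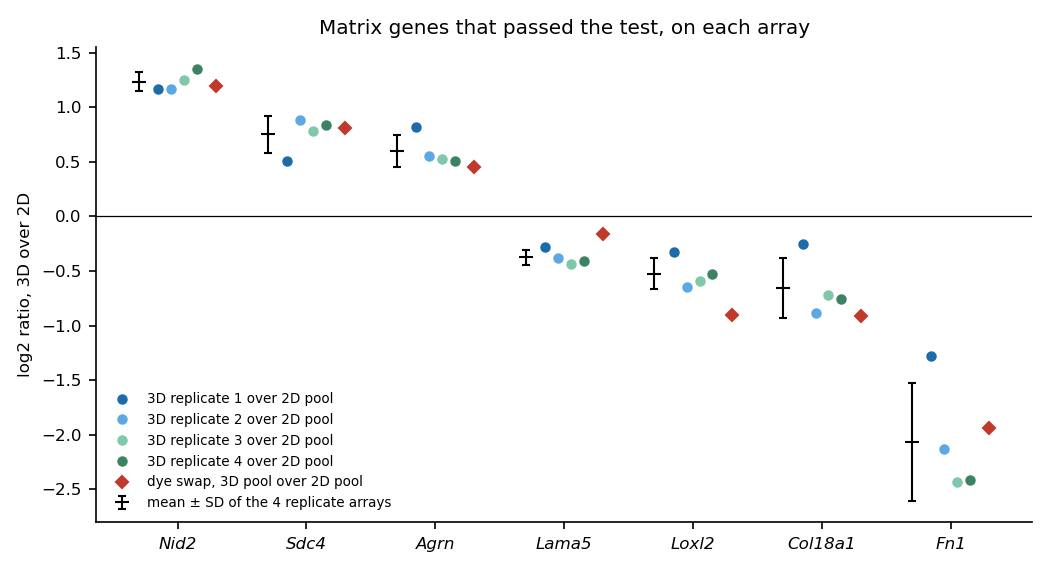
Log2 ratio of 3D over 2D on each array for the 7 matrix genes that passed. Circles are replicates 1 to 4, the red diamond is the dye swap of the pools, and black bars are the mean ± SD of the 4 replicates. Nid2, Sdc4 and Agrn lie above 0 and Lama5, Loxl2, Col18a1 and Fn1 below 0 on all 5 arrays, and the darkest blue circle, replicate 1, is the nearest to 0 of the 4 replicates for Sdc4 and for each of the 4 lower genes.

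Fn1, fibronectin, which cells assemble into fibrils through integrins, had the largest difference of all 39 genes. Its log2 signal was 9.51, 8.99, 8.67, 8.48 and 9.22 in the 3D channel of replicates 1 to 4 and the swapped array, against 10.79, 11.12, 11.11, 10.89 and 11.15 in the 2D channel. The highest 3D signal was below the lowest 2D signal, although the 2D channel read the same pool on every array. The log2 ratios of -1.28, -2.13, -2.43, -2.41 and -1.93 gave a fit of -2.04 ± 0.14 (SE; limma adjusted p = 4.48e-06), 4.11-fold lower in 3D. Replicate 1 was again the least reduced, and the 4 replicates averaged -2.06 ± 0.54 (SD), against -2.32 for replicates 2 to 4. The second Fn1 probe was lower in 3D on all arrays as well, but by less, at -0.60, -0.65, -0.80 and -1.03 in the replicates and -0.91 on the swapped array (fit -0.80). The mean of both probes was -1.42. The direction of fibronectin was thus shared by its probes, and its size depended on the probe. Vtn, vitronectin, an adhesive protein supplied by serum, was not well above background on any array.

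**Figure D4:**
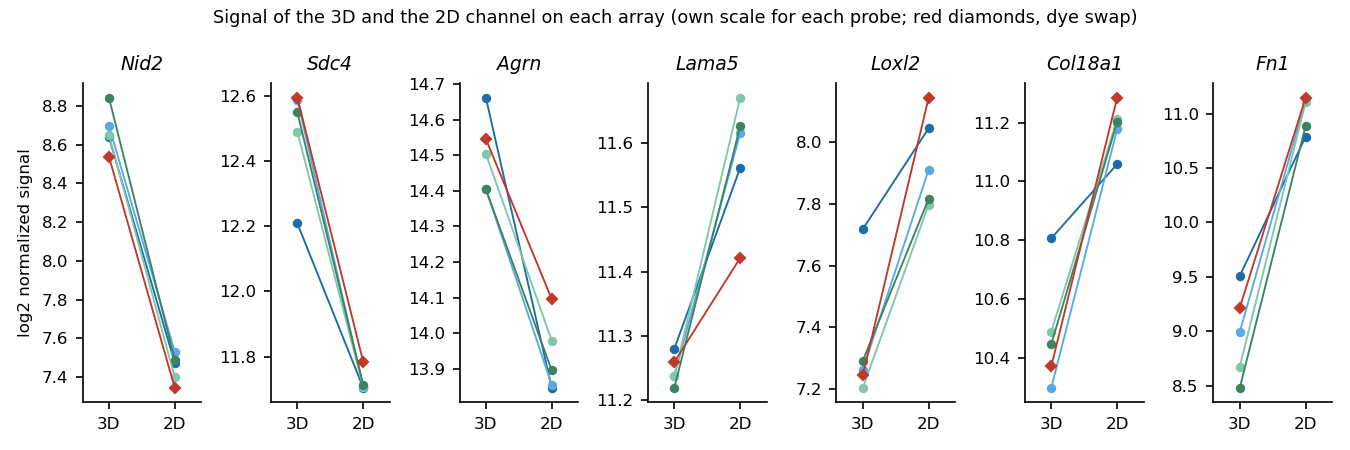
Log2 normalized signal in the 3D channel and the 2D channel of each array for the 7 genes that passed, each panel on its own scale and not to be compared between genes. Lines join the channels of an array, circles are replicates 1 to 4 and red diamonds the dye swap. For Fn1 the 3D signals run from 8.48 to 9.51 and the 2D signals from 10.79 to 11.15.

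None of the 6 fibrillar and other collagens with a probe passed. Col1a1, a chain of type I collagen, fitted to 0.06 (limma adjusted p = 0.494). Its partner Col1a2 was between -0.25 and -0.14 in the 4 replicates but at 0.23 on the swapped array, and fitted to -0.11 (adjusted p = 0.293). It passed as lower without the swapped array (-0.19, adjusted p = 0.00273) but not in the fit with a dye term (0.02, adjusted p = 0.791). Col5a1, which regulates the width of collagen fibrils, fitted to -0.14 (adjusted p = 0.0167) and was well above background on few arrays. It fitted to -0.94 (adjusted p = 0.00541) on the scanner's processed signals. Col3a1, picked out after its values were seen, had the largest SD between replicates of the 39: its log2 ratios were 1.09 and 0.78 in replicates 1 and 2, -0.07 and -0.10 in replicates 3 and 4, and 0.17 on the swapped array. The replicate SD of 0.60 exceeded the mean of 0.43, and the fit of 0.38 did not pass (adjusted p = 0.116). Col6a2 and Col8a1 were not well above background on any array.

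The matricellular proteins, secreted regulators of how cells bind matrix, gave 0 calls among 6. Thbs1, thrombospondin 1, was the only one above background and fitted to -0.09, and Tnc, Thbs2, Sparc, Spp1 and Postn stayed at background in both channels. Of 5 measured microfibril and elastic fibre proteins 0 passed. Efemp2, fibulin 4, needed for elastic fibre assembly, read 0.51 on the swapped array, fitted to 0.19 (adjusted p = 0.0918) and passed, among the alternatives run, only in a fit with a dye term (0.31, adjusted p = 0.00362). Fbln1, fibulin 1, was well above background in the 2D channel of 1 array, with a fit of -0.17 (at least 1.05-fold lower in 3D) and -0.57 on the swapped array. With the dye term it passed as lower (-0.32, adjusted p = 0.000323). Fbn1, Fbln5 and Efemp1 were at background.

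Lysyl oxidases cross-link collagen and elastin. Loxl2, of which collagen IV is also a substrate, was lower in 3D, with log2 ratios of -0.33, -0.65, -0.59 and -0.52 in replicates 1 to 4 and -0.90 on the swapped array. All 5 were below 0. The fit of -0.60 ± 0.07 (SE; limma adjusted p = 0.000132) is 1.51-fold lower, and the replicate mean was -0.52 ± 0.14 (SD, n = 4). Loxl1, an elastin cross-linking enzyme, missed the threshold at a fit of -0.21 (limma adjusted p = 0.0112). It was well above background in the 2D channel of 1 array and the 3D channel of 0, so the size of its difference is uncertain. It passed with the dye term (-0.25, adjusted p = 0.00714), under which 4 of the 39 genes were higher and 6 lower. Among the small leucine-rich proteoglycans, which bind collagen fibrils, only Bgn (biglycan) was above background. Its log2 ratios of 0.15, -0.43, -0.11, -0.21 and, on the swapped array, -0.50 fitted to -0.22 (adjusted p = 0.0793), and its second probe to -0.29. Without replicate 1 it fitted to -0.31 and passed (adjusted p = 0.00998). Dcn (decorin) and Lum (lumican) were at background.

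Cell surface proteoglycans carry heparan sulfate chains that hold matrix proteins and growth factors at the membrane. Sdc4, syndecan 4, a partner of integrins in focal adhesions and a receptor for fibronectin, was higher in 3D. Its log2 signal was 12.21, 12.59, 12.49, 12.55 and 12.59 in the 3D channel of replicates 1 to 4 and the swapped array, against 11.70, 11.71, 11.71, 11.71 and 11.78 in the 2D channel. The channels did not overlap, although the 2D channel read the same pool on every array. The log2 ratios of 0.50, 0.88, 0.78, 0.84 and 0.81 fitted to 0.76 ± 0.06 (SE; limma adjusted p = 6.62e-06), 1.70-fold higher, with a replicate mean of 0.75 ± 0.17 (SD, n = 4). Its second probe was higher on all 5 arrays, with a fit of 0.50. Sdc1, syndecan 1, the syndecan typical of epithelia, fitted to -0.18 (adjusted p = 0.015) and had values below 0 on all 5 arrays, the swapped array being nearest to 0 at -0.01. Without the swapped array it passed as lower (-0.23, adjusted p = 0.00125), but with the dye term it did not (-0.12, adjusted p = 0.0654). The glypicans Gpc1, Gpc3 and Gpc4 were at background.

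**Figure D5:**
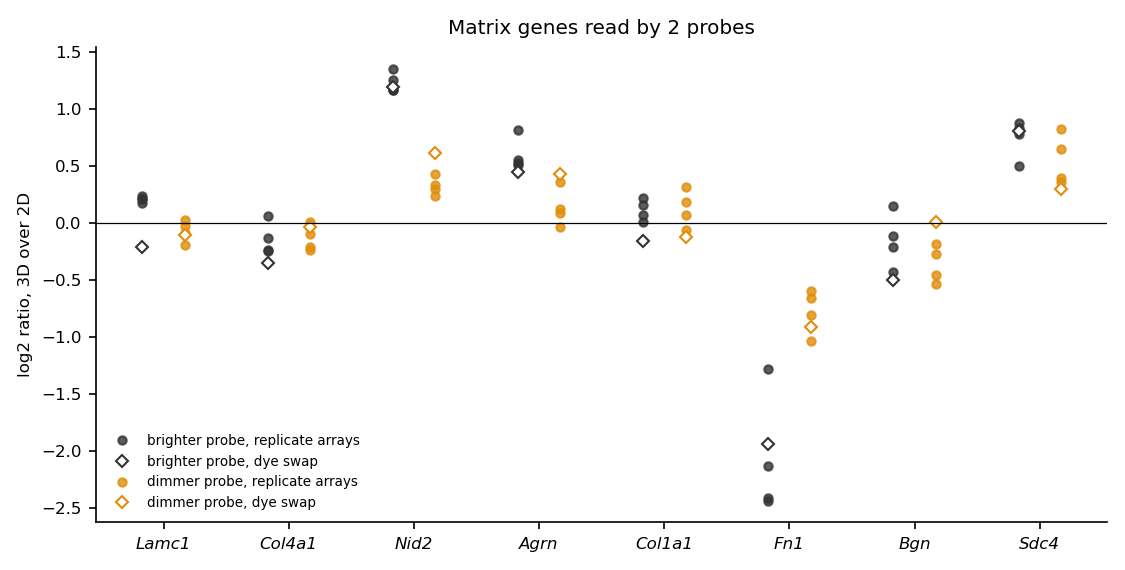
Log2 ratio of 3D over 2D on each array for the 8 matrix genes read by 2 probes. Filled circles are the 4 replicate arrays and open diamonds the dye swap, black for the brighter probe, which stands for the gene, and orange for the dimmer one. For Fn1 the brighter probe fits to -2.04 and the dimmer to -0.80, the dimmer Nid2 probe was not well above background in 2D and gives only a lower bound, and for Lamc1 the fits of 0.12 and -0.08 have opposite signs.

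Because the 3D cells lay in a basement membrane gel, genes of the basement membrane were set beside those of the interstitial matrix. Of 10 measured basement membrane genes, 2 were higher in 3D (Nid2, Agrn) and 2 lower (Col18a1, Lama5), over a range of -0.71 to 1.23 and with a median log2 ratio of 0.03. Of 24 measured interstitial genes, 0 were higher and 2 lower (Fn1, Loxl2), over -2.04 to 0.38 and with a median of -0.03. The median over all genes was 0.0032, close to both, and fibronectin at -2.04 was far below the next lowest interstitial gene, Loxl2 at -0.60. The difference between the classes was not tested, and dim probes weigh on the interstitial counts and median in particular. The calls were 40% of the basement membrane genes and 8.33% of the interstitial genes, beside 25.9% of all genes. All of them were on genes well above background on all arrays, 4 of 8 basement membrane and 2 of 7 interstitial, beside 48.9% of all such genes. Over the genes well above background on all arrays, the medians were -0.04 for 8 basement membrane genes and -0.09 for 7 interstitial genes, beside 0.03 for all such genes. Among all 39 genes, Nid2 and Sdc4 passed with at least 1.5-fold higher values, as 4.06% of all genes did, and Fn1, Col18a1 and Loxl2 with at least 1.5-fold lower values, as 3.08% did.

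On several of these genes the array of replicate 1 lay apart from those of the other 3 replicates. With 1 such array per 3D culture, a difference of the culture and one of the array cannot be told apart. Over the 17 genes well above background on all arrays it had the highest log2 ratio of the 4 replicates for 9 and the lowest for 3. Fn1 was at -1.28 in replicate 1 and averaged -2.32 over replicates 2 to 4, and Col18a1 was at -0.25 against -0.79. Agrn and Sdc4 departed in opposite directions, Agrn at 0.82 against 0.53 and Sdc4 at 0.50 against 0.83. Without replicate 1 the 7 calls remained, and Col4a1 and Bgn were added as lower. Over the 39 genes, Pearson correlations between replicate arrays ran from 0.81 to 0.98 and those of the swapped array with the replicates from 0.71 to 0.87, as a description across genes, which are not independent.

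Further genes of the same pathways, from lists that stand beside the 57, were read in the same fit. Of the 10 other basement membrane genes reported here, 2 were well above background on all arrays. Among the 10, 1 was lower (10%, beside 11.5% of all genes): Ecm1, a binding partner of perlecan, at -0.19. Of 27 other interstitial genes, 3 were lower (11.1%, beside 11.5% of all genes): Ccn2 at -1.25 and Ccn1 at -0.79, secreted matricellular proteins, and Loxl4, another lysyl oxidase, at -0.39. Ccn2 was below 0 on every array, with -1.12, -1.29, -1.35 and -1.27 in the replicates and -1.23 on the swapped array. Vwa1, named after its values were seen, was the 1 higher gene at 0.68, but read -0.06 on the swapped array.

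Of 17 enzymes and chaperones of collagen biosynthesis, 4 were higher in 3D and 3 lower. P3h4, a partner of the collagen-modifying enzymes in the endoplasmic reticulum, was the most increased, with 0.90, 1.03, 1.02 and 1.08 in the replicates and 0.91 on the swapped array (fit 0.99). Plod3, a lysyl hydroxylase, and Pcolce, an enhancer of procollagen cleavage, were both at 0.36. P4ha2 at -0.45 and P4ha1 at -0.29, the catalytic subunits of prolyl hydroxylase, were lower, as was Crtap, a helper of prolyl hydroxylation, at -0.21. The 7 calls are 41.2% of the 17, of which 13 were well above background on all arrays, a share between the 25.9% of all genes and the 48.9% of genes with such signals.

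Of 17 other surface proteoglycans and enzymes of heparan sulfate, 5 were higher (29.4%) and 1 lower (5.88%), beside 14.4% and 11.5% of all genes and 26.7% and 22.2% of genes above background throughout, as 12 of the 17 were. Hpse, heparanase, which cleaves heparan sulfate chains, had 1.04, 1.14, 1.24 and 1.33 in the replicates and 1.15 on the swapped array (fit 1.18, 2.26-fold). Hs6st1, a sulfotransferase of the chains, was at 0.65 and Extl3, which takes part in starting them, at 0.60, although Extl3 read only 0.06 on the swapped array. Ext1, the polymerase that extends them, was lower at -0.38.

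The identity of the cells was checked against marker genes. All 8 epithelial markers were well above background in both channels of every array. Of these, 5 passed (62.5%, beside 48.9% of genes with such signals). Ocln at 0.88, Pax8 at 0.71, Cdh16 at 0.53 and Epcam at 0.28 were higher in 3D, and Cldn3 was lower at -1.34. Pax8 read only 0.05 on the swapped array, beside 0.65 to 1.02 in the replicates. With the dye term it fitted to 0.46 (limma adjusted p = 0.000412). Epcam read 0.63 on the swapped array, beside 0.17 to 0.24 in the replicates. The summed linear signal of the 8 was 42907 to 47907 in the 3D channel, against 38211 to 41682 in the 2D channel. Of 8 fibroblast markers measured, 4 (Pdgfrb, Thy1, Fap, Tagln) were not above background on any array. S100a4 at 1.68 and Pdgfra at 0.55 were higher in 3D. These 2 are 25% of the list, beside 14.4% of all genes and 26.7% of genes above background throughout, as 3 of the 8 were. The summed linear signal of that list was 27725 to 34401 in the 3D channel, against 11982 to 15341 in the 2D channel. S100a4 made up 23958 to 30731 of it in 3D and 7466 to 11071 in 2D. With S100a4 left out, after its values were seen, the sums overlapped, at 3283 to 4898 in the 3D channel, against 4176 to 4516 in the 2D channel. Vim fitted to -0.20 and did not pass. Acta2 was above background in the 3D channel of 5 arrays and the 2D channel of 2, fitted to 0.03 and did not pass. Of 5 endothelial markers 4, and of 6 leukocyte markers 4, were at background throughout. Cdh5 was above it in the 3D channel of 5 arrays and the 2D channel of 3, and Csf1r in the 2D channel of 1. Cd14 was above it in both channels of all 5 arrays and did not pass (fit 0.20, limma adjusted p = 0.228). The part of the fibroblast markers in the matrix genes' differences was not tested. The 5 arrays had median raw signals of 103 to 117.5 in Cy5 and 47 to 54 in Cy3, 0 saturated spots, and 45% to 50.9% of probes well above background in a channel, and their small number limits the precision of every value.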

How the data were processed

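The authors' deposited scanner files hold spot intensity values (median pixel signals of spot and local background, not normalized) from Agilent Feature Extraction 10.7.3.1, designed on build rn4, and log10 ratios of signals that the same software had background-subtracted and dye-normalized. The authors' deposited value table holds log2 ratios, which they made with limma by normexp, loess and quantiles. Checked against the scanner files, every column of it is 3D over 2D.

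Values were computed from the median signals in R 4.3.3 with limma 3.58.1: normexp with an offset of 50, which compresses ratios of dim probes, loess with controls at weight 0, and quantiles on average intensity. Spots marked as outliers (1.12% to 1.60% per array) were left out. Spots of a probe were averaged, and the brightest probe stood for its gene. Of 30367 probes, 17998 (59.3%) had a symbol through a RefSeq table of build GRCr8. With the sign of the swapped array turned, a linear model of 1 coefficient was fitted to the 5 arrays for all 15154 genes, with Benjamini-Hochberg adjustment at an FDR of 0.01. A probe was well above background by the scanner software's flag. The fit was checked on simulated data. P-values measure the spread between these arrays, which share the 2D pool.

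The 57 genes and the further lists were chosen with earlier results of these data known. Every gene is accounted for. Array values are given for laminin chains, Fn1, Col4a1 and genes that passed with at least 1.5-fold, and up to 3 higher and 3 lower genes are named per further list. A gene of the further lists is not reported here and is left out of their counts. Alternatives were another offset, the scanner's processed signals, median centring, the deposited value table, a dye term, removal of dim probes, outlier spots kept, other probe rules, an FDR of 0.05 and leaving out each array.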

Additional observations from a re-analysis of the deposited data

Results flagged for a closer look

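Among the 4 replicate arrays, 3 values lay far from the others by Dixon's test. The Agrn log2 ratio of replicate 1 was 0.82, above 0.55, 0.53 and 0.51 in the other replicates. The Gpc1 log2 ratio of replicate 2 was 0.0431, against -0.17, -0.16 and -0.18, on a probe that was not well above background on any array. The median over the basement membrane genes was -0.0307 in replicate 4, below 0.08, 0.06 and 0.07. Chance alone flags about 1 in 20 groups, and 39 genes were examined.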

How the results depend on the processing

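The 6 calls on Nid2, Agrn, Sdc4, Fn1, Col18a1 and Loxl2 passed in 14 of 15 alternatives and Lama5 in 12 of 15. An FDR of 0.05 only loosened the threshold of the main fit, so these calls passed there of necessity. Removal of dim probes left the log2 ratios of these genes unchanged. With median centring and no loess, 0 genes were higher and 0 lower. The other 6 genes kept their sign there, Lama5 turned to 0.20, and the median log2 ratios were 0.33 (basement membrane) and -0.20 (interstitial). Only 7 of all 15154 genes passed there, and with an offset of 0 and on the scanner's processed signals 14.7% and 18.4% passed. The deposited value table called the same share as the main setting but with 49.2% of its calls higher, against 55.6%. The interstitial median was -0.13 with an offset of 0, the basement membrane median -0.0752 on the scanner's processed signals, and with dim probes removed, which left 18 of the 39 genes, they were -0.10 and -0.0420. Lower genes numbered 8 at an FDR of 0.05 and 7 without the swapped array. Leaving out each array gave 3 to 4 higher and 4 to 7 lower genes, and medians of 0.01 to 0.04 (basement membrane) and -0.04 to -0.02 (interstitial). The cause of these changes was not tested. No paired analysis was possible because every 3D culture was set against the same 2D pool. Dim signals limit what can be said: for 18 genes a difference was not measurable at this signal.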
